A study of Basiliscus vittatus and Chrysopelea ornata and Dasypeltis gansi with 10 samples.

Results

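The cerebellar transcriptome of the egg-eating snake Dasypeltis gansi was compared with those of the other 4 snakes in a survey of 10 squamate species. The table held 630 one-to-one orthologs, each with 1 FPKM value per species (an RNA level scaled to transcript length and to all mapped fragments of the library). FPKM were taken as log2(FPKM + 1), and each species was shifted to the same median over the 630 genes. A gene of D. gansi was called above when it exceeded the highest of the 4 other snakes on this scale, and below when it was under the lowest. By this rule 339 of the 630 genes lay outside the range of the other snakes and 291 lay within it.

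All tissue was cerebellum from adult, wild-type animals. D. gansi is a limbless arboreal colubrid that moves by arboreal concertina, gripping branches with alternately folded and extended parts of the body. The 4 others were Pantherophis guttatus, a terrestrial colubrid that moves by lateral undulation; Chrysopelea ornata, an aerial and arboreal colubrid, also a lateral undulator; Python regius, a terrestrial pythonid with vestigial hindlimbs and rectilinear movement; and Eryx colubrinus, a boid with vestigial hindlimbs that burrows facultatively and undulates slowly. Each of these names stands for 1 column of the table, and no species had a replicate. The sources used here do not give how many animals entered a column or how duplicate sequencing runs were merged. A difference between D. gansi and the rest is therefore a difference between these columns, in which species, animal and library cannot be told apart. Values of the 4 other snakes are given below in the order P. guttatus, C. ornata, P. regius and E. colubrinus.

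The cerebellum compares intended with actual movement, and its cortex is built from a few kinds of neuron. Granule cells are small, very numerous and glutamatergic, and their axons, the parallel fibres, contact the dendrites of Purkinje cells. Purkinje cells are large GABAergic neurons and carry the output of the cortex, and in snakes such as D. gansi their bodies are scattered through the molecular layer in place of a monolayer. Radial glia and astrocytes, oligodendrocytes and vessels make up the remainder of the tissue. The usual defining markers of Purkinje and granule cells, calbindin 1 and the ZIC factors, were not analysed here, since the ortholog table has no row for them, so that the labelled tissue could be checked only through secondary markers, given at the end.

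D. gansi did not stand apart in total level. Its 630 FPKM summed to 14867, against 10249 to 15880 in the other snakes, and its median was 11.4 FPKM against 10.1 to 19.8. The spread across genes was at the upper edge, with an SD of 1.34 in log2 units against 1.17 to 1.34. The 10 most abundant genes held 13.3% of the sum in D. gansi and 9.58 to 10.6% in the others. Because the median of D. gansi was low beside its sum, the shift to a common median raised it: the median difference between D. gansi and the mean of the 4 others over all 630 genes was 0.27 in log2 units after centring, -0.14 without it, 0.02 after quantile normalization and 0.01 after scaling by median of ratios. Single differences are best read against that shift.

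After centring, 212 genes of D. gansi lay above the 4 other snakes (33.7% of those tested) and 127 lay below (20.2%). The gap to the nearest other snake had a median of 0.60 log2 units among the genes above and 0.50 among those below, and it reached 3.96 and 3.84. A gap of 1 or more, a doubling on the log2(FPKM + 1) scale, was found above the range in 74 genes (11.7%) and below it in 28 (4.44%). At this edge, uridine-cytidine kinase-like 1 (gap 1.04) was the last gene inside and carboxypeptidase D (1.00 after rounding) the nearest outside among those above. Among those below, ATP-binding cassette sub-family F member 1 (1.01) was the last inside and rap guanine nucleotide exchange factor 2 (1.00 after rounding) the nearest outside.

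The balance of genes above and below depended on the scaling, while D. gansi had the most far genes under each one. Genes above made up 62.5% of the genes outside the range after centring, 44.3% without centring (128 above, 161 below), 50.2% after quantile normalization (158 and 157) and 49.8% after median of ratios (163 and 164). D. gansi lay 1 log2 unit or more beyond every other snake in 102 genes after centring, where each of the other snakes did so in 23 to 37. Without centring the numbers were 92 for D. gansi and 26 to 66 for the others, after quantile normalization 95 and 26 to 45, and after median of ratios 104 and 26 to 36. Under all 4 scalings, 116 genes lay above the range and 117 below, and 31 and 28 of them did so by 1 log2 unit or more.

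**Figure D1:**
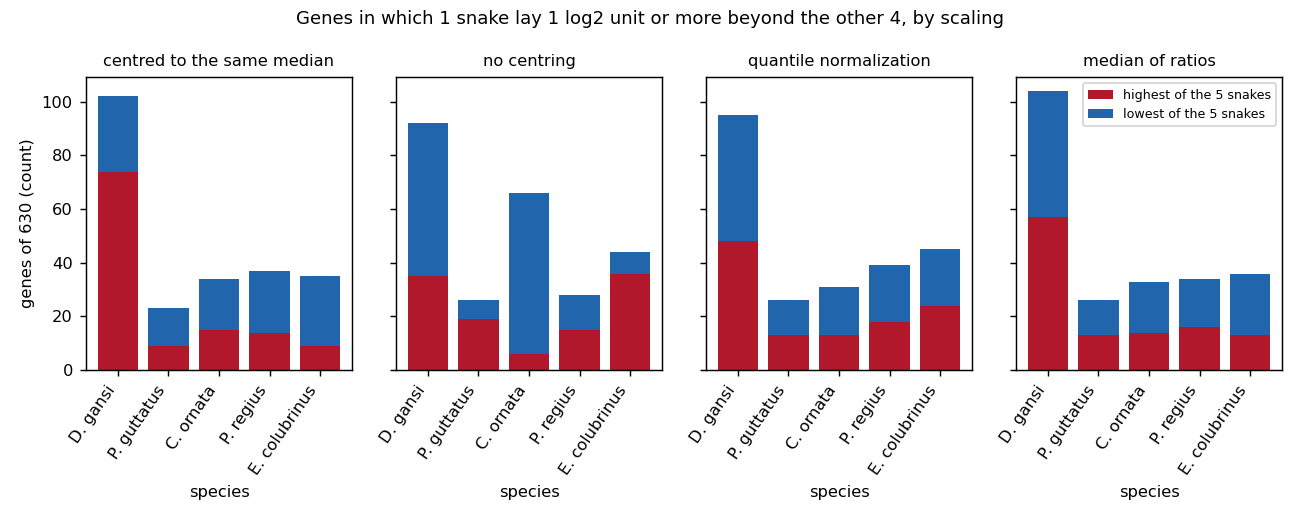
Number of the 630 genes in which each snake lay 1 log2 unit or more above (red) or below (blue) all 4 others, in 4 panels for 4 scalings of log2(FPKM + 1); the x axis gives the species and the y axis counts genes. The bar of D. gansi is the tallest in each panel, at 102, 92, 95 and 104 genes.

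By the rule, genes far above have high levels in D. gansi and genes far below have low ones, and their levels are given as a description. Genes above by 1 log2 unit or more had D. gansi levels from 5.02 FPKM upwards, and 19 of the 74 were at 100 FPKM or more. In the 28 genes below, the level in D. gansi was at most 6.93 FPKM, and it was under 5 in 19 of them.

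**Figure D2:**
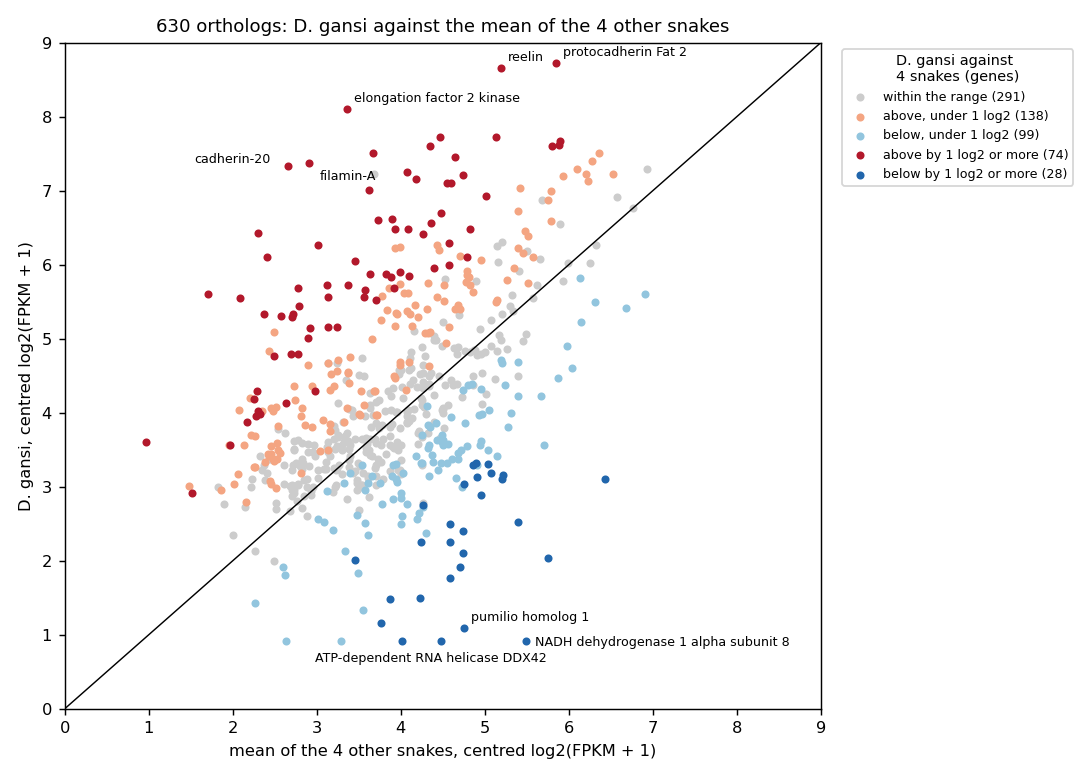
Level of each of the 630 genes in D. gansi (y axis) against the mean of the 4 other snakes (x axis), both as centred log2(FPKM + 1), with the line of equality. Dark red points are the 74 genes above the range by 1 log2 unit or more, dark blue points the 28 genes below by as much, pale points nearer genes outside it and grey points the 291 genes within.

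With 1 column against 4, an exact permutation test cannot give a two-sided p below 0.4 or a one-sided p below 0.2. The moderated linear model of limma, which takes the spread from the 4 other snakes and from all genes and assumes that D. gansi varies as they do, was therefore used. Its p-values set a difference against the spread between those 4 columns, biological and technical together, to which the D. gansi column adds nothing. Under each scaling that column had the most genes 1 log2 unit or more beyond the other snakes (102 against 23 to 37 after centring). Limma therefore cannot tell a difference in a single gene from a column that is more extreme throughout. With Benjamini-Hochberg adjustment over the 630 genes at 0.05, it called 3 genes higher (0.476% of those tested) and 2 lower (0.317%) in D. gansi. At an unadjusted p under 0.05 there were 68 higher and 28 lower.

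Cadherin-20, a classical type II cadherin of neuronal cell adhesion, was at 127 FPKM in D. gansi and at 5.90, 2.19, 5.24 and 13.7 FPKM in the other snakes. Its level was 9.26 times that of E. colubrinus, the nearest snake, and the difference from the mean of the 4 was 4.67 log2 units with a standard error of 0.72 (limma, adjusted p = 0.0431). Filamin-A, which crosslinks actin filaments and links them to membrane receptors, was at 131 FPKM against 9.03, 2.25, 7.54 and 13.2 FPKM, with a difference of 4.47 log2 units and a standard error of 0.71 (limma, adjusted p = 0.0431). The other snakes were all low for both genes, C. ornata the lowest and E. colubrinus the highest of them. Filamin-A is also 1 of the 7 vascular and meningeal markers described below, and without it the other 6 did not all lie on the same side.

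Eukaryotic elongation factor 2 kinase, the calcium- and calmodulin-dependent kinase that inhibits peptide chain elongation, was at 218 FPKM in D. gansi. It was at 19.9, 6.04, 14.4 and 5.20 FPKM in the others, and the difference was 4.74 log2 units with a standard error of 0.83 (limma, adjusted p = 0.0431). These 3 genes also lay above all 5 lizards of the survey, although for cadherin-20 most lizards were nearer to D. gansi than the snakes were: the agamid Pogona vitticeps was at 60.0 FPKM and the basilisk Basiliscus vittatus at 51.8 FPKM.

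NADH dehydrogenase [ubiquinone] 1 alpha subcomplex subunit 8, an accessory subunit of respiratory complex I, was at 0.5 FPKM in D. gansi against 29.7, 55.9, 56.7 and 50.4 FPKM. The difference was -4.58 log2 units with a standard error of 0.76 (limma, adjusted p = 0.0431). ATP-dependent RNA helicase DDX42, a helicase of the U2 snRNP in splicing, was at 0.5 FPKM against 24.4, 15.4, 24.8 and 27.6 FPKM, with a difference of -3.56 log2 units and a standard error of 0.62 (limma, adjusted p = 0.0431). The 4 other snakes agreed closely for the helicase, with an SD of 0.04 log2 units after centring. The value of 0.5 FPKM was the lowest of any snake in the table and recurred 30 times over the 10 species, so the size of a difference from it says only that D. gansi was at that lowest listed value. D. gansi had 5 genes at this value, the others being the signal peptidase subunit SEC11C, terminal uridylyltransferase 7 (3.08 to 17.4 FPKM in the other snakes) and unconventional myosin-X-like (2.75 to 21.2).

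These 5 calls rested on the set of snakes and the scaling. No gene was called without P. guttatus (smallest adjusted p 0.0542), without C. ornata (0.111), without P. regius (0.0917) or after quantile normalization (0.0722). Without E. colubrinus 3 genes were called higher and 2 lower, but only 4 of the 5 were the same: the helicase lost its call and neurobeachin gained one. Over 13 alternative fits, cadherin-20, filamin-A and the complex I subunit were called in 8 each and the elongation factor kinase and the helicase in 6 each. The direction of the 5 did not change, but with gaps of 3.51 to 3.96 log2 units to the nearest other snake these fits could hardly change it. The limma adjusted p of cadherin-20 ranged from 0.0155 to 0.111 over them, and that of the kinase from 0.0252 to 0.153.

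**Figure D3:**
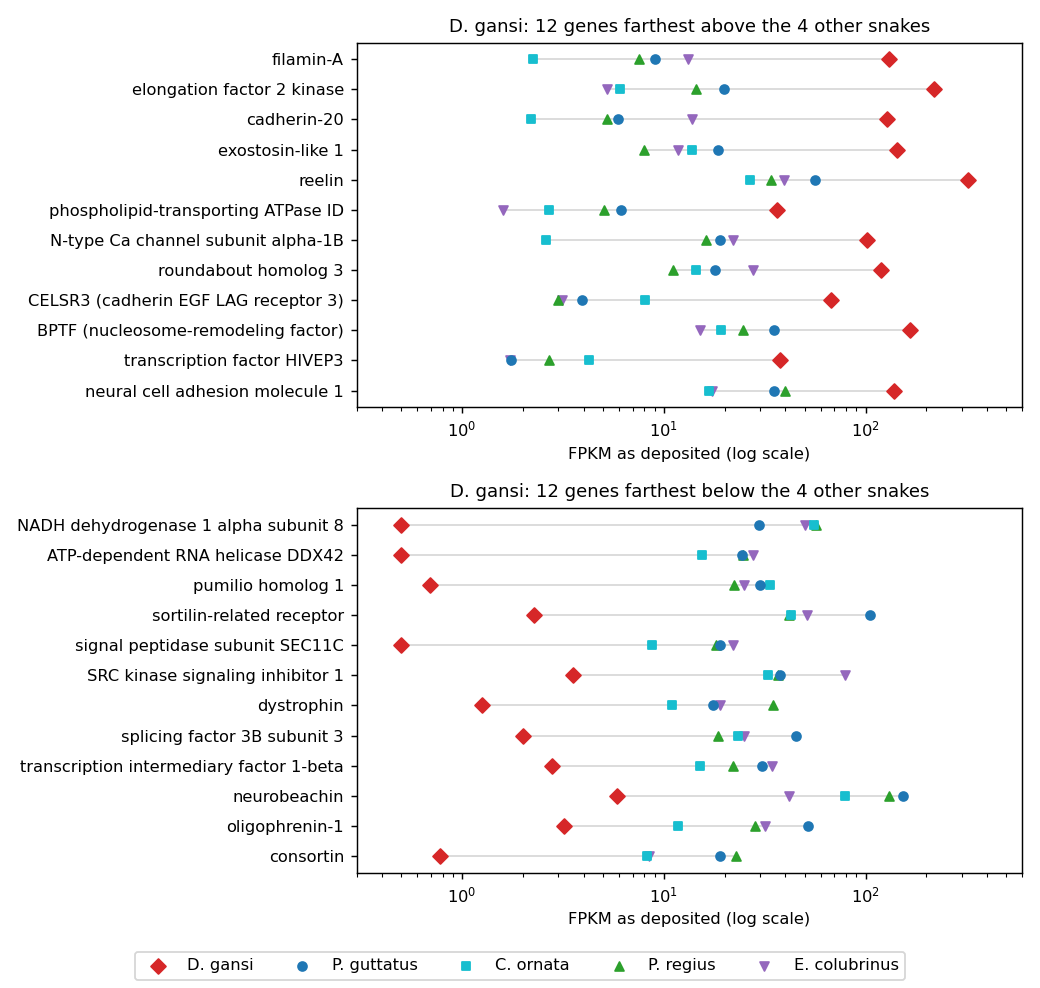
FPKM as deposited (x axis, log scale) in the 5 snakes for the 12 genes of D. gansi farthest above the other 4 (top) and the 12 farthest below (bottom); red diamonds are D. gansi and the other symbols the other snakes, 1 point per species. D. gansi is at 131 FPKM for filamin-A, with the nearest snake at 13.2 FPKM, and at 0.5 FPKM for the complex I subunit, with the nearest snake at 29.7 FPKM.

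Axon guidance and neural cell adhesion genes lay on both sides. Guidance receptors steer growing axons towards or away from a source of ligand, and adhesion molecules of the immunoglobulin family hold neurites together and shape synapses. Of 29 such genes in the table, 14 lay above (48.3%, against 33.7% of all genes) and 7 below (24.1%, against 20.2%). By 1 log2 unit or more, 6 lay above and 4 below, and none passed limma. Under the other 3 scalings 10 to 13 lay above and 7 or 8 below. The median difference was 0.86 log2 units over the list and 0.27 over all genes, and under the other 3 scalings the median of the list was 0.37 to 0.59. As this list and those that follow were drawn up with earlier results of these data known, their counts are descriptions. Over all 630 genes, 11.7% lay above and 4.44% below by 1 log2 unit or more after centring. The balance over all genes also moved with the scaling, from 212 above and 127 below after centring to 128 and 161 without it. It was 158 and 157 after quantile normalization and 163 and 164 after median of ratios.

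Reelin is a secreted glycoprotein that positions neurons and that granule cells make in the cerebellum. It was at 321 FPKM in D. gansi against 56.2, 26.8, 33.8 and 39.5 FPKM, a difference of 3.47 log2 units with a standard error of 0.66 that just missed the threshold (limma, adjusted p = 0.0571). All 4 other snakes were well below D. gansi. Lizards were also lower, with the highest, the chameleon Trioceros jacksonii, at 147 FPKM. Reelin is also 1 of the 5 granule cell markers described below, whose sum was 744 FPKM in D. gansi against 118 to 214. Most of that sum in D. gansi came from reelin itself and protocadherin Fat 2.

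Roundabout homolog 3, a receptor of the Slit pathway that in mammals lets commissural axons cross the midline, was at 120 FPKM against 18, 14.5, 11.1 and 27.6 FPKM (difference 3.17 log2 units, standard error 0.70). Neural cell adhesion molecule 1 was at 139 FPKM against 35.4, 16.8, 39.9 and 17.4 FPKM (difference 2.81). Its relative, neural cell adhesion molecule 2, was at 66.9 FPKM against 21.7, 6.18, 35.1 and 28.3 FPKM. None of the ranges of the other snakes reached D. gansi in these genes. Several more adhesion molecules lay above after centring with smaller margins: neuronal cell adhesion molecule at 104 FPKM against 28.7 to 78.6, neurofascin at 83.5 FPKM against 32.5 to 73.4, and neural cell adhesion molecule L1 at 100.25 FPKM against 40.8 to 96.5. Teneurin-1, a transmembrane protein that binds latrophilins across the synapse, was at 69.8 FPKM against 39, 3.79, 23.2 and 13.7 FPKM.

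Other guidance genes lay on the opposite side. Spondin-1, a secreted protein of the floor plate that promotes axon outgrowth, was at 6.11 FPKM in D. gansi against 59.6, 21.9, 47.2 and 35.1 FPKM (difference -2.06 log2 units, standard error 0.68). Ephrin type-A receptor 4, which mediates repulsion in spinal and cortical circuits, was at 6.25 FPKM against 35.1, 19.5, 48.3 and 43.6 FPKM (difference -1.89). Both were at least 3 times lower in FPKM than the lowest other snake, by 3.58-fold and 3.12-fold. Semaphorin-4D was at 5.52 FPKM against 18.9 to 38.6, netrin receptor UNC5A at 6.93 FPKM against 20.1 to 48.4, and ephrin type-B receptor 1 at 8.35 FPKM against 25.4 to 119. Spondin-1 and ephrin type-A receptor 4 were within the range of the lizards, where spondin-1 was at 2.30 to 7.24 FPKM.

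Cadherins are calcium-dependent adhesion molecules, and the protocadherins among them give neurons combinatorial surface identities. Of 21 members, 8 lay above (38.1%, near the 33.7% of all genes) and 4 below (near the 20.2% of all genes), and 1 passed limma, cadherin-20. By 1 log2 unit or more, 4 lay above and none below after centring, against 11.7% and 4.44% of all genes. Under the other scalings 3 lay above and 1 or 2 below by as much. Quantile normalization turned the balance to 6 above and 7 below, against 158 and 157 of all 630 genes. The median difference was 0.44 log2 units after centring, 0.03 without it and -0.00 after quantile normalization.

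Cadherin EGF LAG seven-pass G-type receptor 3, a planar polarity cadherin needed for axon tracts in the mouse brain, was at 67.5 FPKM in D. gansi. It was at 3.95, 8.09, 3.00 and 3.12 FPKM in the others, a difference of 4.13 log2 units with a standard error of 0.88 (limma, adjusted p = 0.0642). Protocadherin Fat 2, a giant cadherin whose mammalian form sits on granule cell parallel fibres, was the most abundant gene of D. gansi in the table at 334 FPKM, against 120, 75.4, 43.0 and 33.5 FPKM. Both genes were higher than in all 9 other species. Cadherin EGF LAG seven-pass G-type receptor 2 was on the other side, at 6.00 FPKM against 25.7, 17.9, 30.7 and 12.3 FPKM. Protocadherin Fat 3, at 1.00 FPKM against 25.6, 2.40, 41.7 and 5.16 FPKM, was also the lowest of the 5, with the other snakes spread so widely that the gap was 0.88 log2 units. Cadherin-18 was at 4.43 FPKM against 15.2 to 21.9.

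Ion channels and pumps set the excitability of cerebellar neurons and their calcium signals. Of 24 genes, 10 lay above (41.7%, against 33.7% of all genes) and 3 below (12.5%, against 20.2%), and none passed limma. By 1 log2 unit or more, 4 lay above and none below after centring, and 1 or 2 above and at most 1 below under the other scalings. Of all genes, 11.7% lay above and 4.44% below by as much after centring. The difference was positive in 20 of them (in 383 of all 630 genes), with a median of 0.93 log2 units after centring and 0.49 to 0.67 under the other 3 scalings. Of the 10 genes above, 7 also lay above the 5 lizards on the centred scale, as did 110 of all 212 genes above.

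Voltage-dependent N-type calcium channel subunit alpha-1B, the pore of the presynaptic channel that triggers transmitter release, was at 102 FPKM in D. gansi against 19, 2.60, 16.1 and 22.0 FPKM. The difference was 3.39 log2 units with a standard error of 0.84 (limma, adjusted p = 0.113). P. guttatus, P. regius and E. colubrinus had similar levels, and C. ornata was far below them. The table had 4 voltage-dependent calcium channel subunits, and D. gansi was within the range for the others: L-type alpha-1C at 22.5 FPKM against 15.7 to 33.8, R-type alpha-1E at 8.55 FPKM against 2.19 to 13.1, and T-type alpha-1G at 9.54 FPKM against 1.84 to 22.5.

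Inositol 1,4,5-trisphosphate receptor type 1, the calcium release channel of Purkinje cell stores, was at 156 FPKM against 58.5, 63.3, 109 and 34.9 FPKM (difference 1.74 log2 units, standard error 0.83). Sodium channel subunit beta-1, an auxiliary subunit of neuronal sodium channels, was at 61.7 FPKM against 28.7, 10.2, 29.3 and 38.2 FPKM. Potassium channel subfamily T member 1, a sodium-activated potassium channel, was at 44.1 FPKM against 16.1, 4.33, 17.5 and 33.6 FPKM. In each of these 3 genes D. gansi had the highest FPKM, also before centring, by 1.43-fold over the nearest snake for the inositol trisphosphate receptor and by 1.62-fold for the sodium channel subunit. Anoctamin-5 lay below at 6.02 FPKM against 17.2, 7.74, 17.5 and 19.6 FPKM, and calcium-transporting ATPase type 2C member 1, a Golgi calcium and manganese pump, at 7.95 FPKM against 21.4, 36.0, 37.3 and 44.8 FPKM.

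Presynaptic genes lay on both sides. Of 18 genes of the vesicle cycle and active zone, 9 lay above (50.0%, against 33.7% of all genes) and 3 below (16.7%, against 20.2%) after centring. By 1 log2 unit or more 1 lay in each direction, and none passed limma. Under the other scalings 3 or 4 lay above and 5 or 6 below, and the median difference of 0.10 turned to -0.31, -0.16 and -0.16 there. Over all 630 genes, 128 to 163 lay above and 157 to 164 below there, and the median of 0.27 turned to -0.14, 0.02 and 0.01. Calcium-dependent secretion activator 1, which primes dense-core vesicles, was at 161 FPKM against 72.4, 58.1, 61.3 and 56.3 FPKM, more than 2 times the level of each (2.23-fold over P. guttatus). Liprin-alpha-4, an active zone scaffold, was at 2.44 FPKM against 48.8, 32.4, 13.8 and 25.1 FPKM and also lay below all lizards, which were at 22.2 to 44.6 FPKM. Intersectin-2, an endocytic scaffold, was at 3.46 FPKM against 11 to 23.4.

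Of 15 glutamate and GABA receptors and postsynaptic scaffolds, 4 lay above after centring (26.7%, against 33.7% of all genes). Below the range lay 3 (near the 20.2% of all genes). The balance turned under the other scalings, to 1 above and 4 below without centring and to 2 above and 6 below after quantile normalization and after median of ratios. Over all 630 genes it moved as well, to 128 and 161, 158 and 157, and 163 and 164. The median difference was 0.21 log2 units after centring (0.27 over all genes) and -0.34 to -0.06 under the others (-0.14 to 0.02 over all genes). Neurabin-2, also called spinophilin, which holds protein phosphatase 1 in dendritic spines, was at 95.7 FPKM against 34.5, 28.7, 41.9 and 29.7 FPKM, the only member past 1 log2 unit. Glutamate receptor 1, an AMPA receptor subunit that Bergmann glia express in mammals, was at 6.76 FPKM against 34.1, 46.6, 14 and 39.4 FPKM. For metabotropic glutamate receptor 1, the receptor of the Purkinje cell synapse, all snakes were near each other, at 27.4 FPKM in D. gansi against 30.4, 21.6, 23.1 and 22.8 FPKM.

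**Figure D4:**
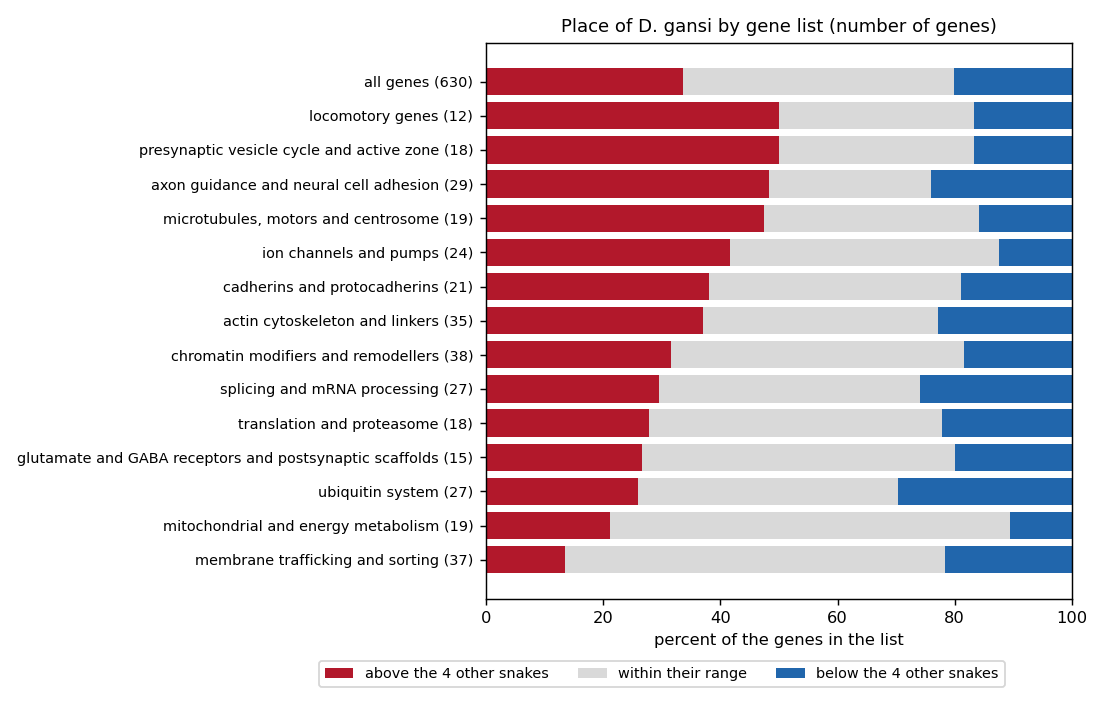
Share of the genes of each list (y axis, with the number of genes) for which D. gansi lay above (red), within (grey) or below (blue) the range of the 4 other snakes, in percent of the list (x axis), after centring. The top bar gives all 630 genes, 33.7% above and 20.2% below; the share above runs from 50.0% in the locomotory and presynaptic lists to 13.5% in membrane trafficking and sorting.

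The actin cytoskeleton and its linkers had 13 of 35 genes above (37.1%, near the 33.7% of all genes) and 8 below (22.9%, near 20.2%). By 1 log2 unit or more, 5 lay above and 3 below, and filamin-A passed limma. Of all genes, 11.7% lay above and 4.44% below by as much. The median difference of the actin list was 0.25 log2 units, close to that of all genes. Without centring 8 lay above and 11 below, against 128 and 161 of all 630 genes. Girdin, an actin-binding regulator of cell migration, was at 31.3 FPKM against 2.78, 1.48, 7.45 and 10.5 FPKM. Dystrophin, which ties actin to the membrane complex that in mammals clusters GABA receptors on Purkinje cells, was at 1.25 FPKM against 17.5, 11, 34.7 and 18.9 FPKM (difference -2.73 log2 units, standard error 0.69). Unconventional myosin-IXa, an actin motor, was at 6.81 FPKM against 18.7 to 41.5. Of 19 genes of microtubules, motors and centrosome, 9 lay above (47.4%, against 33.7% of all genes) and 3 below (15.8%, against 20.2%). Under the other scalings 6 to 9 lay above and 3 or 4 below. Microtubule cross-linking factor 1 was the farthest, at 75.9 FPKM against 10.7, 13.6, 8.56 and 22.9 FPKM, followed by centrin-3, a centriole protein, at 30.6 FPKM against 3.18, 2.79, 5.22 and 14.8 FPKM. No member of that list was below by 1 log2 unit, against 4.44% of all genes.

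Of 37 genes of membrane trafficking and sorting, 5 lay above (13.5%, against 33.7% of all genes) and 8 below (21.6%, near 20.2%), with a median difference of 0.15 log2 units. Under the other scalings 5 or 6 lay above and 8 or 9 below, and the median difference was -0.26 to -0.10. Without centring, 6 of the 37 lay above, against 128 of all 630 genes. Sorting nexin-9, which remodels membrane in endocytosis, was at 53.4 FPKM against 5.29, 1.54, 21.5 and 1.80 FPKM, so that P. regius stood between D. gansi and the rest. Sortilin-related receptor, a sorting receptor of neurons that returns amyloid precursor protein from endosomes, was at 2.27 FPKM against 106, 42.7, 41.5 and 51.6 FPKM. The difference was -3.71 log2 units with a standard error of 0.74 (limma, adjusted p = 0.0571). D. gansi was 18.3 times lower in FPKM than the lowest other snake, although the lizards P. vitticeps (3.01 FPKM) and Lepidothyris fernandi (1.26 FPKM) had similarly low values. Sorting nexin-14, whose human gene is mutated in a cerebellar ataxia, was at 2.21 FPKM against 10.2, 6.70, 8.80 and 20.9 FPKM.

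Of 27 genes of splicing and mRNA processing, 8 lay above (29.6%, against 33.7% of all genes) and 7 below (25.9%, against 20.2%) after centring. By 1 log2 unit or more, 1 lay above and 3 below, against 11.7% and 4.44% of all genes. Under the other scalings 4 to 6 lay above and 6 to 8 below. The DDX42 helicase passed limma, and the median difference was 0.02 log2 units. Pumilio homolog 1, an RNA-binding repressor of translation, was at 0.69 FPKM against 30.0, 33.8, 22.3 and 25.1 FPKM, with a difference of -3.66 log2 units and a standard error of 0.74 (limma, adjusted p = 0.0571). D. gansi was also below all lizards for this gene, which were at 9.06 to 44.0 FPKM. Components of the SF3B complex, which recognises the branch point with the U2 snRNP, were split. Splicing factor 3B subunit 3 was at 2.01 FPKM against 45.3, 23.4, 18.5 and 25.1 FPKM, and splicing factor 3B subunit 2 at 35.7 FPKM against 15.5, 10.1, 16.5 and 10.7 FPKM.

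Among 18 genes of translation and the proteasome 5 lay above (27.8%, against 33.7% of all genes) and 4 below (22.2%, against 20.2%). Only the elongation factor kinase was past 1 log2 unit. Under the other scalings 2 or 3 lay above and 3 or 4 below. The ubiquitin system, with 27 genes, had 7 above (25.9%, against 33.7% of all genes) and 8 below (29.6%, against 20.2%), none past 1 log2 unit, after centring. Without centring 1 lay above and 11 below, 5 of them by 1 log2 unit or more, and after quantile normalization 5 lay above and 10 below, 1 of them by as much. Of all 630 genes, 128 lay above and 161 below without centring, and 158 and 157 after quantile normalization. The median difference of the ubiquitin list was -0.14 log2 units after centring (0.27 over all genes). It was negative under all 4 scalings, down to -0.56 without centring (-0.14 over all genes). Ubiquitin-conjugating enzyme E2 N, which builds lysine-63-linked chains, was at 16.6 FPKM against 55.1, 108, 55.1 and 41.7 FPKM. Of 19 mitochondrial and energy genes, 4 lay above (21.1%, against 33.7% of all genes) and 2 below (10.5%, against 20.2%) after centring. The balance turned under the other scalings, to 1 above and 4 below without centring, 2 and 7 after quantile normalization and 2 and 4 after median of ratios. Over all 630 genes it moved as well, to 128 and 161, 158 and 157, and 163 and 164 in the same order. The complex I subunit described above was the farthest below, and 3-hydroxy-3-methylglutaryl-Coenzyme A reductase, the rate-limiting enzyme of cholesterol synthesis, was the next below, at 6.94 FPKM against 20.9, 18.1, 25.7 and 32.4 FPKM.

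Chromatin modifiers and remodellers had 12 of 38 genes above (31.6%, near the 33.7% of all genes) and 7 below (18.4%, near 20.2%) after centring. Under the other scalings the numbers were 7 and 14 without centring, 9 and 9 after quantile normalization and 7 and 12 after median of ratios. Over all 630 genes they were 128 and 161, 158 and 157, and 163 and 164 in the same order. Nucleosome-remodeling factor subunit BPTF, the large histone-reading subunit of the NURF remodeller, was at 166 FPKM against 35.2, 19.1, 24.8 and 15.1 FPKM (difference 3.25 log2 units, standard error 0.74). Histone-lysine N-methyltransferase ASH1L was at 30.1 FPKM against 2.30, 3.17, 10.4 and 13.2 FPKM. Lysine-specific demethylase 3B was at 5.98 FPKM against 30.3, 32.2, 21.9 and 42.4 FPKM. The methyltransferase and the remodeller were higher, and the demethylase lower, than in all 9 other species on the centred scale, although in FPKM the lizard L. fernandi was lower than D. gansi for the demethylase (3.25 FPKM). The median difference of the list was 0.09 log2 units (0.27 over all genes). It was negative under the other 3 scalings, between -0.32 and -0.12 (-0.14 to 0.02 over all genes).

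Of the far genes, 39 of the 74 above and 13 of the 28 below belonged to none of the lists. Of all 630 genes, 340 belonged to at least 1 list. Exostosin-like 1, a glycosyltransferase of heparan sulfate synthesis, was at 144 FPKM against 18.6, 13.8, 8.00 and 11.8 FPKM (difference 3.83 log2 units, standard error 0.76; limma, adjusted p = 0.0571). Transcription factor HIVEP3, a large zinc finger protein, was at 37.9 FPKM against 1.74, 4.27, 2.70 and 1.73 FPKM. Phospholipid-transporting ATPase ID, a flippase that moves phospholipids between membrane leaflets, was at 36.3 FPKM against 6.14, 2.69, 5.06 and 1.60 FPKM. For these 3 genes all 4 other snakes were low, and D. gansi also exceeded the 5 lizards.

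Below the range, signal peptidase complex catalytic subunit SEC11C was at the lowest listed value, 0.5 FPKM, against 19, 8.73, 18.2 and 22.0 FPKM (difference -3.10 log2 units, standard error 0.63; limma, adjusted p = 0.0571). SRC kinase signaling inhibitor 1, a postsynaptic adaptor, was at 3.55 FPKM against 37.9, 32.8, 37 and 79.6 FPKM. Neurobeachin, a large scaffold needed to bring receptors to synapses in mice, was at 5.88 FPKM against 153, 79.5, 131 and 41.6 FPKM. D. gansi was 7.07 times lower than the lowest other snake for neurobeachin. Oligophrenin-1, whose human gene is linked to intellectual disability with cerebellar hypoplasia, was at 3.19 FPKM against 51.9, 11.8, 28.4 and 31.8 FPKM. Transcription intermediary factor 1-beta, a corepressor of zinc finger proteins, was at 2.79 FPKM against 15.1 to 34.5, and consortin, a protein of connexin transport, at 0.78 FPKM against 8.28 to 22.8. For SEC11C, oligophrenin-1 and consortin D. gansi was also below the lizards on the centred scale. It was within their range for neurobeachin (B. vittatus at 0.7 FPKM), SRC kinase signaling inhibitor 1 (B. vittatus at 3.14) and transcription intermediary factor 1-beta (Pseudopus apodus at 1.44).

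The study drew attention to genes tied to locomotory behaviour, and 12 of those it named as examples were taken as a list. Its other genes of that category were not used here. That list was chosen by the study on these samples, so its counts are not independent evidence of a direction. Of the 12, 6 lay above (50.0%, against 33.7% of all genes; 3 of the 6 were within the range in FPKM) and 2 below (16.7%, against 20.2%), 2 in each direction by 1 log2 unit or more, and none passed limma; without centring 3 lay above and 2 below. Of all 630 genes, 11.7% lay above and 4.44% below by 1 log2 unit or more after centring, and 128 lay above and 161 below without it. The median difference of the list was 0.48 log2 units after centring and 0.07 without it, against 0.27 and -0.14 over all genes.

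Alsin, a guanine nucleotide exchange factor for Rab5 that is mutated in juvenile motor neuron disease in humans, was at 77.2 FPKM against 13.5, 6.94, 24.1 and 20.3 FPKM. Its difference was 2.72 log2 units with a standard error of 0.68 (limma, adjusted p = 0.113). Hamartin, the TSC1 partner of tuberin that restrains mTOR, was at 60.1 FPKM against 7.03, 1.04, 18.8 and 15.2 FPKM, with a difference of 3.26 log2 units and a standard error of 0.96 (limma, adjusted p = 0.149). Both exceeded every other species, the 5 lizards included. Nuclear receptor coactivator 2, at 36.8 FPKM, was 1.10 times the level of E. colubrinus, the nearest snake.

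Pumilio homolog 1 and ephrin type-A receptor 4, described above, were the members below the range. In metabotropic glutamate receptor 1, unconventional myosin-Va and astrotactin-1, D. gansi lay above after centring, by 0.16, 0.35 and 0.20 log2 units, but was within the range in FPKM. The remaining genes were within the range on the centred scale: contactin-2 (20.2 FPKM against 3.22 to 37.9), metabotropic glutamate receptor 5 (22.3 against 13.7 to 56.7), striatin (17.4 against 14.2 to 45.9) and spatacsin (4.78 against 3.91 to 26.7).

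**Figure D5:**
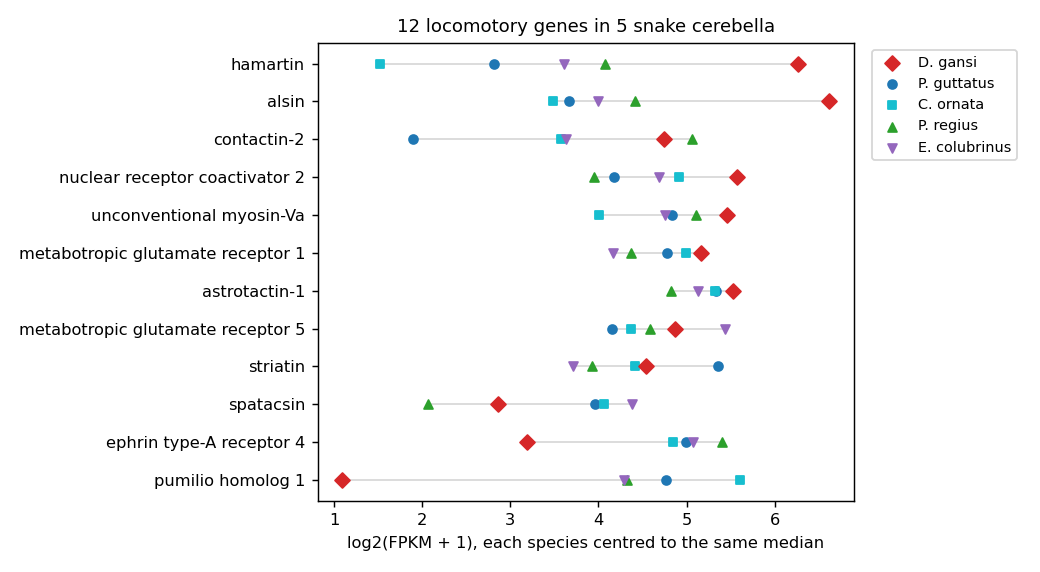
Centred log2(FPKM + 1) (x axis) of the 12 locomotory genes (y axis) in D. gansi (red diamonds) and the 4 other snakes, 1 point per species, ordered by the difference between D. gansi and the mean of the others. Hamartin and alsin stand 2.18 and 2.20 log2 units above the highest other snake, and pumilio homolog 1 stands 3.21 below the lowest.

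Summed markers of several cell types also differed between D. gansi and the other snakes, and their part in the results was not tested. In bulk tissue, fewer cells of a type and less RNA per cell cannot be told apart. The 5 granule cell markers summed to 744 FPKM in D. gansi against 118 to 214 in the other snakes. After centring, 3 of the 5 lay above (60.0%, against 33.7% of all genes). Reelin and protocadherin Fat 2, both named for lying above the range, made up most of that sum. Without them, D. gansi had a lower sum than P. regius and a higher one than the remaining snakes. Of the other members, NT-3 growth factor receptor was at 57.4 FPKM against 9.53 to 49.6, contactin-2 was within the range, and glutamate receptor 4 was at 11.5 FPKM against 3.95 to 27.5.

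The 5 Purkinje cell markers summed to 253 FPKM against 110 to 192. After centring 3 lay above (60.0%, against 33.7% of all genes) and none below (against 20.2%). Without centring and after median of ratios 2 lay above, against 128 and 163 of all 630 genes. Of the 3, metabotropic glutamate receptor 1 was above by 0.16 log2 units only and within the range in FPKM. Ryanodine receptor 1 (19.3 FPKM against 4.2 to 30.1) and T-type alpha-1G were within the range. The others above were the inositol trisphosphate receptor and sn1-specific diacylglycerol lipase alpha, the enzyme of endocannabinoid synthesis, at 40.9 FPKM against 33.9, 19.5, 21.8 and 19.5 FPKM. The 5 astroglial markers summed to 53.5 FPKM, under the 71.4 to 125 of the other snakes. After centring none of the 5 lay above, against 33.7% of all genes. Below lay 2 of the 5 (against 20.2% of all genes), glutamate receptor 1 and fibroblast growth factor receptor 3. The latter was below by 0.03 log2 units after centring and within the range in FPKM. Metabotropic glutamate receptor 3 (7.58 FPKM against 6.01 to 19.9) and tenascin (8.07 against 2.24 to 16.4) were within the range. Electrogenic sodium bicarbonate cotransporter 1 was within it too (20.6 against 3.73 to 53.5). Without glutamate receptor 1, the astroglial sum was higher in D. gansi than in C. ornata.

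The 5 oligodendrocyte lineage markers summed to 174 FPKM, inside the 74.4 to 207 of the others. After centring 3 of the 5 lay above (60.0%, against 33.7% of all genes) and 1 below (near the 20.2% of all genes). After quantile normalization 2 lay above and 1 below, against 158 and 157 of all 630 genes. ATP-binding cassette sub-family A member 2, a lipid transporter of oligodendrocytes, was at 33.5 FPKM against 5.56, 2.79, 5.61 and 16.7 FPKM. The others above after centring were myelin transcription factor 1 (36.92 FPKM against 5.87 to 26.18) and neurofascin (83.5 against 32.5 to 73.4). Gelsolin lay below (13.95 against 14.42 to 134.11), and tenascin-R (6.56 against 2.09 to 45.1) was within the range. The 7 vascular and meningeal markers summed to 178 FPKM against 52.7 to 97.7, and 131 FPKM of that was filamin-A. Without filamin-A, the sum of the remaining markers was lower in D. gansi than in each of the other snakes. After centring 3 of the 7 lay above (42.9%, against 33.7% of all genes) and 2 below (28.6%, against 20.2%). Myosin-9 (7.94 FPKM against 17.5 to 36.8) and integrin alpha-V (1.15 against 3.27 to 4.65) lay below. Transgelin-2 (11.4 against 2.00 to 6.31) lay above, as did filamin-A. Laminin gamma-1 (6.98 against 2.07 to 8.20) lay above after centring but inside the range of FPKM. Laminin alpha-5 (12.3 against 2.56 to 22.6) and utrophin (6.86 against 2.57 to 17.3) were within the range.

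After centring, the number of genes that separated D. gansi from another snake was similar for the 4. D. gansi differed by 1 log2 unit or more from P. guttatus in 295 genes (184 higher, 111 lower), from C. ornata in 294 (186 and 108), from P. regius in 283 (187 and 96) and from E. colubrinus in 282 (193 and 89). P. regius, which the study placed in the same locomotor category as D. gansi, lay with it above the remaining 3 snakes in 73 genes and with it below them in 56. The same counts were 64 and 43 for P. guttatus, 99 and 47 for C. ornata, and 81 and 60 for E. colubrinus. All these counts are after centring and were not made under the other scalings. D. gansi and C. ornata had lower medians (11.4 and 10.1 FPKM) than the other snakes (16.8 to 19.8), so centring raised them relative to these. Without it, C. ornata was the highest of the 5 snakes in 34 genes (127 after centring) and D. gansi in 128 (212 after centring).

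Set against the 5 lizards, 110 of the 212 genes above the snakes also lay above the range of the lizards and 102 lay within it. Of the 74 far genes above, 63 were above the lizards as well and 11 were within their range. Of the 127 genes below the snakes, 57 were also below the lizards, 69 were within and 1, general transcription factor 3C polypeptide 2 (10.1 FPKM against 13.6 to 30.3 in the snakes), was above. D. gansi was beyond all 9 other species by 1 log2 unit or more in 27 genes above and 8 below. As these genes were picked for extreme values in D. gansi, they tend to be extreme against the lizards too. The counts are a description, and the share of all genes beyond the lizards is not given here.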

How the data were processed

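RNA from cerebella of 10 squamate species was sequenced after rRNA depletion. By the methods and the submitters' processing notes, the authors trimmed reads with Trimmomatic, removed rRNA with SortMeRNA, assembled each species de novo with Trinity, inferred orthologs with OrthoFinder and deposited FPKM estimated by RSEM, keeping orthologs above 0.5 FPKM in at least 1 sample. FPKM therefore depend on the contig assembled in each species; contig lengths and read depths are not used here, so no counting error is given. Authors' names of proteins were used as genes; no reference was used.

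The D. gansi column was compared with 4 snakes on log2(FPKM + 1), centred by species, with limma 3.58.1 (R 4.3.3). A check on simulated data gave D. gansi the spread of the 4 other snakes, so it cannot test that assumption. A pseudocount of 1 understates changes of low genes. Members and lists were chosen with earlier results of these data known. Named were genes past limma, the 12 farthest on each side, 2 per list and side, and 12 locomotory genes; other genes were named after their values were seen. The alternatives tried were other scalings, pseudocounts, filters, reference sets and leaving out each snake.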

Additional observations from a re-analysis of the deposited data

Results flagged for a closer look

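In 6 of the 82 genes that the naming rule gave, 1 of the 4 other snakes stood far from the other 3 on the centred log2 scale (gap to the nearest snake over the whole range, past Dixon's critical value at 95%). Chance alone gives such a gap in about 1 of 20 groups. E. colubrinus was the lowest of the 4 for phospholipid-transporting ATPase ID (0.838), splicing factor 3B subunit 2 (0.870) and neurobeachin (0.875), and the highest for ATP-binding cassette sub-family A member 2 (0.918). C. ornata was the lowest for voltage-dependent N-type calcium channel subunit alpha-1B (0.855) and for anoctamin-5 (0.892), where it was at 7.74 FPKM and D. gansi at 6.02 FPKM.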

How the results depend on the processing

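No paired analysis was possible because each species is 1 column and the labels share no replicate numbers. Counts of genes are given as above, below, above by 1 log2 unit and below by 1 log2 unit, against 212, 127, 74 and 28, and limma calls against 3 higher and 2 lower; the cause of a move was not tested. Without centring 128 genes lay above, 35 above by 1 and 57 below by 1, and limma called 0 higher and 1 lower. Quantile normalization gave 48 and 47 past 1 and 0 limma calls in either direction (46 higher and 45 lower at an unadjusted p under 0.05). Median of ratios, chosen after seeing the data, gave 47 below by 1 and 5 lower by limma. A pseudocount of 0.1 gave 4 lower by limma, and one of 5 gave 17 below by 1 and limma calls of 5 higher and 0 lower. Leaving out 22 rows with doubtful names gave limma calls of 7 higher and 5 lower, and a variance trend 5 higher. Against the 2 other colubrids alone, 194 genes lay below, 126 above by 1 and 63 below by 1; against all 9 other species the 4 counts were 110, 57, 27 and 8. Leaving out each snake in turn gave 231 to 246, 142 to 149, 85 to 93 and 32 to 40, with limma calls of 0 to 3 higher and 0 to 2 lower. Most named genes were chosen for lying outside the range, and for them leaving out a snake cannot reverse the direction. The FPKM filter, the removal of doubtful names, the variance trend and the fit on all 10 species leave each difference unchanged by construction. With those limits, named genes kept their direction in 99.2% of 1064 values, a share that does not measure robustness. The 8 exceptions were metabotropic glutamate receptor 5 (-0.17 without centring, -0.01 by quantile, -0.02 by median of ratios), striatin (-0.23 without centring, -0.08 by median of ratios, and -0.04 to 0.52 when 1 snake was left out, the lowest without E. colubrinus) and astrotactin-1 (-0.03 without centring, -0.11 by quantile). With no replicate of any species and no read depth, the error of a single value is unknown.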

Other observations

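The following genes belong to none of the lists and were picked singly after their values were seen. After centring, D. gansi lay beyond the other snakes by 1 log2 unit or more in each, and none passed limma. Under all 4 scalings it did so in each but ankyrin-2. Ankyrins anchor channels and adhesion molecules to the neuronal membrane skeleton. Ankyrin-3, the ankyrin of the axon initial segment, was at 153 FPKM in D. gansi against 58.3, 21.4, 4.58 and 28.6 FPKM, and ankyrin-2 was at 168 FPKM against 16.8, 12.1, 83.3 and 96.3 FPKM. Both genes exceeded the 9 other species.

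UDP-N-acetylglucosamine--peptide N-acetylglucosaminyltransferase 110 kDa subunit, the enzyme of nuclear and cytoplasmic O-GlcNAc, was at 117 FPKM against 32, 25.4, 22.9 and 30.0 FPKM, a difference of 2.47 log2 units with a standard error of 0.67. Double-stranded RNA-specific editase 1, the adenosine deaminase that edits glutamate receptor transcripts in mammals, was at 45.8 FPKM against 19.3, 14, 9.50 and 8.34 FPKM. On the other side, catenin delta-1, which stabilises cadherins at the membrane, was at 3.46 FPKM against 21.8, 22.3, 33.4 and 22.4 FPKM.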
